A study of Homo sapiens with 11 samples.

Results

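A set of 10 transcripts of glucose uptake and glycolysis (SLC2A1, HK1, HK2, GPI, PFKP, ALDOA, GAPDH, PGK1, ENO1 and LDHA) were followed on 11 expression arrays of cells given a mimic of miR-365a-3p or a control miRNA. The genes were chosen by name as the glucose transporter and the main enzymes of the pathway, and each had 1 of the 31325 gene symbols with a deposited value. In MDA-MB-231 cells, 8 of the 10 transcripts fell, and in SKOV3 cells 3 of the 10 fell, which were GPI, ALDOA and HK1. Of GAPDH and PGK1, which are often used as control genes, GAPDH fell in MDA-MB-231 cells and PGK1 passed the test in neither cell line. The ratio of GAPDH to PGK1 was lower with miR-365a-3p by 0.43 in MDA-MB-231 and by 0.51 in SKOV3 cells on the log2 scale, and its call in SKOV3 cells depended on which of the genes served as the reference.

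MDA-MB-231 is an established human breast cancer line and SKOV3 an established human ovarian cancer line. The groups were MDA-MB-231 cells with miR-365a-3p (3 arrays), MDA-MB-231 cells with control miRNA (3 arrays), SKOV3 cells with miR-365a-3p (3 arrays) and SKOV3 cells with control miRNA (2 arrays), and all cells had been transfected with a miRNA, the controls included. The labels give 48 h of treatment, the series description gives 24 h, and the study's methods name the ovarian line as the derivative SKOV3.ip1. The comparisons asked how mRNAs responded to an excess of miR-365a-3p, and nothing states that replicates came from separate cultures, so that p-values measure only the spread between these arrays.

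Glycolysis converts glucose to pyruvate in the cytosol and yields ATP without oxygen. Cells take up glucose through transporters, trap it as glucose 6-phosphate, split the resulting fructose bisphosphate into triose phosphates, and recover ATP and NADH from these in the later steps. Cancer cells often run the pathway at a high rate and reduce the pyruvate to lactate even when oxygen is present, and the transcription factors HIF-1 and MYC are known to activate many of its genes. A miRNA pairs through its seed, bases 2 to 8 from the 5′ end, with sites in mRNAs and lowers their stability and translation.

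The mature miRNA is shown because its seed defines the perturbation, with the seed in capitals. The entry for miR-365 in the study's mimic library and the RefSeq sequences of hsa-miR-365a-3p and hsa-miR-365b-3p were identical in all 22 bases.
hsa-miR-365a-3p: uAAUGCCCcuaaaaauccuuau
It is annotated at chr16:14309340-14309361 on the plus strand of GRCh38.p14, and only these 2 mature miRNAs of the human table shared the seed. No transcript sequences were used here, so that sites for this seed in the glycolysis mRNAs were not searched.

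Values are log2 signals after quantile normalization, and a change is the treated mean minus the control mean of the same cell line. Bulk RNA was hybridized, so that a fall in fewer cells and less RNA in every cell cannot be told apart. A change was called where limma gave an adjusted p under 0.05 over all 31325 genes. In MDA-MB-231 cells 11.7% of all genes fell and 14.4% rose by this test, and in SKOV3 cells 7.11% fell and 7.25% rose. Brighter genes were called more often. Among the 6853 genes with a mean signal over 8, which include all 10 glycolysis genes, 26.2% fell in the MDA-MB-231 line and 15.3% in SKOV3 cells. Against these shares, 8 of the 10 glycolysis genes fell and 0 rose in MDA-MB-231 cells, and 3 fell and 0 rose in SKOV3 cells. The median change of the 10 was -0.91 in the MDA-MB-231 line and -0.51 in SKOV3 cells, where that of all genes was 0.0064 and 0.0066 and that of the genes with a mean over 8 was 0.17 and 0.15. GPI, ALDOA and HK1 fell in both cell lines, as did 5.39% of all genes.

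The arrays differed between treatments as a whole. Before quantile normalization the 75th percentile of the values lay at 7.56 to 7.65 on the MDA-MB-231 arrays with miR-365a-3p and at 7.86 to 7.93 on their controls, and at 7.67 to 7.80 and 7.98 to 8.04 in SKOV3 cells, while the 99th percentile was higher with miR-365a-3p (12.51 to 12.64 against 12.28 to 12.32, and 12.41 to 12.49 against 12.21 to 12.31). The median of 79 cytosolic ribosomal protein transcripts per array was 12.78 to 12.81 with miR-365a-3p and 12.34 to 12.68 in the controls of MDA-MB-231 cells, and 12.46 to 12.61 against 12.16 to 12.24 in SKOV3 cells. The part of these differences in the falls of glycolysis transcripts was not tested. MDA-MB-231 miR-365a-3p replicate 1 had the lowest value of its group for each of the 10 genes, and results without it are given where a call changed or the value moved by over 1.5 times. Markers of the labelled lines were only partly distinct, since ERBB2, MUC1, PAX8 and KRT8, 4 of the 7 SKOV3 markers, were higher in the SKOV3 controls than in the MDA-MB-231 controls, but 0 of the 6 MDA-MB-231 markers were called lower there and SPARC was higher. AXL and CD44 differed by -1.25 (95% interval -2.29 to -0.21, limma adjusted p = 0.117) and -0.78 (95% interval -1.33 to -0.24, limma adjusted p = 0.0609) in the same comparison and were not called. MSN and CAV1 leaned the other way (0.55, limma adjusted p = 0.161, and 0.30, limma adjusted p = 0.606) and were not called. VIM hardly differed (-0.092, limma adjusted p = 0.931). The markers also moved with the treatment. Of the 6 MDA-MB-231 markers, 3 fell in both lines, which were AXL (-3.80 in MDA-MB-231 and -2.44 in SKOV3 cells), CD44 (-2.52 and -1.43) and MSN (-1.62 and -1.12). Of the 7 SKOV3 markers, KRT7 rose by 0.98 and 1.27, KRT8 rose in MDA-MB-231 cells by 0.86, and ERBB2, MUC1 and PAX8 fell in SKOV3 cells (-1.57, -0.81 and -0.70). The part of these shifts in the falls of glycolysis transcripts was not tested. The 4 immune markers were called in no comparison and all lay below a mean of 8.

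**Figure D1:**
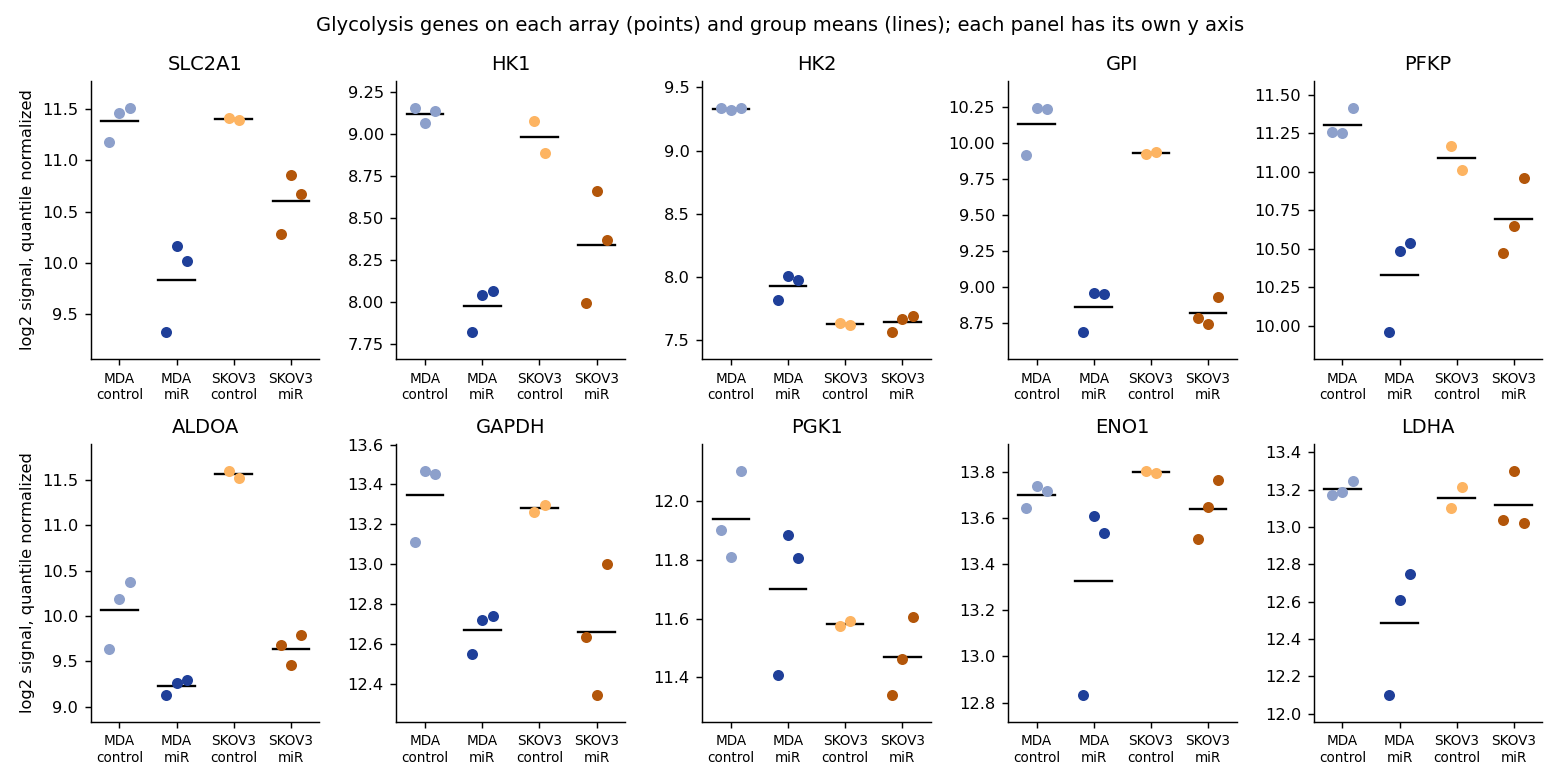
Log2 signal after quantile normalization (y axis, its own range in each panel) of the 10 glycolysis genes on each array (points) and as group means (lines), for MDA-MB-231 and SKOV3 cells with control miRNA or miR-365a-3p (miR). Every miR-365a-3p array lay below every control array in both cell lines for 7 genes, as for 10.3% of all genes, and PGK1 overlapped in both.

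SLC2A1 (GLUT1) is the basal glucose transporter of the plasma membrane. Its signal was 11.18, 11.47 and 11.51 in the MDA-MB-231 controls and 9.32, 10.16 and 10.02 with miR-365a-3p. In SKOV3 cells it was 11.41 and 11.40 in the controls and 10.28, 10.86 and 10.67 with miR-365a-3p. The groups did not overlap in either cell line, and the treated arrays were spread more widely than the controls. SLC2A1 fell by 1.55 ± 0.224 (SE, n = 3 and 3, limma adjusted p = 0.00111) in MDA-MB-231 cells, the furthest of the 10 genes there. The change in SKOV3 cells was -0.80 ± 0.25 (SE, n = 3 and 2) and was not called (limma adjusted p = 0.0693). Without MDA-MB-231 miR-365a-3p replicate 1, which entered the shared estimate of the spread, it was -0.79 and called (limma adjusted p = 0.016).

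Hexokinases phosphorylate glucose and so keep it in the cell. HK1, the widely expressed isoform bound to mitochondria, read 9.16, 9.06 and 9.14 in the MDA-MB-231 controls against 7.82, 8.04 and 8.06 with miR-365a-3p. The SKOV3 arrays read 9.08 and 8.89 against 7.99, 8.66 and 8.37. All treated arrays lay below all controls. HK1 fell by 1.15 ± 0.148 (SE, limma adjusted p = 0.00064) in the MDA-MB-231 line and by 0.64 ± 0.166 (SE, limma adjusted p = 0.0334) in SKOV3 cells. The SKOV3 call of HK1 was made in 6 of the 11 fits that left out 1 array, and was lost without MDA-MB-231 miR-365a-3p replicate 2 (adjusted p = 0.0553), MDA-MB-231 control replicate 3 (0.0531), SKOV3 miR-365a-3p replicate 3 (0.0679), SKOV3 control replicate 1 (0.22) or SKOV3 control replicate 2 (0.107).

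HK2, the isoform induced in many tumours, differed between the cell lines both in the controls and in its response. It read 9.33, 9.33 and 9.34 in the MDA-MB-231 controls and 7.82, 8.01 and 7.97 with miR-365a-3p. In SKOV3 cells the controls read 7.64 and 7.62 and the treated arrays 7.56, 7.67 and 7.69. The SKOV3 controls were thus already below the treated MDA-MB-231 arrays, and the SKOV3 groups overlapped. HK2 fell by 1.40 ± 0.0504 (SE, limma adjusted p = 1.45e-06) in MDA-MB-231 cells, to 37.9% of the control mean if the scale is taken as log2. The change in SKOV3 cells was 0.012 with a 95% interval of -0.12 to 0.14 (limma adjusted p = 0.957). The difference between the responses was 1.41 (95% interval 1.24 to 1.58, limma adjusted p = 6.81e-05). HK2 was the only one of the 10 genes for which this difference was called, against 2.54% of all genes. HK2 ranked between 2847 and 9979 of the 31325 signals of an array, and how much lower its value can go in SKOV3 cells was not tested.

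GPI, which turns glucose 6-phosphate into fructose 6-phosphate, fell in both lines. Its signal was 9.92, 10.24 and 10.23 in the MDA-MB-231 controls and 8.69, 8.96 and 8.95 with miR-365a-3p. The signal in SKOV3 cells was 9.92 and 9.93 in the controls and 8.78, 8.74 and 8.93 with miR-365a-3p. No treated array came within the range of the controls. GPI fell by 1.27 ± 0.104 (SE, limma adjusted p = 6.38e-05) in the MDA-MB-231 line and by 1.11 ± 0.116 (SE, limma adjusted p = 0.000475) in SKOV3 cells, and the difference of the responses was 0.16 with a 95% interval of -0.19 to 0.51. Both calls were made in all 11 fits that left out 1 array.

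PFKP is the platelet-type isoform of phosphofructokinase, the enzyme of the committed step. It read 11.26, 11.25 and 11.41 in the MDA-MB-231 controls and 9.96, 10.48 and 10.54 with miR-365a-3p. SKOV3 cells gave 11.17 and 11.01 against 10.47, 10.65 and 10.96. The groups were apart in both lines, in SKOV3 cells by a narrow gap. PFKP fell by 0.98 (limma adjusted p = 0.00259) in MDA-MB-231 cells, and the change of -0.40 in SKOV3 cells was not called (95% interval -0.82 to 0.028, limma adjusted p = 0.239).

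ALDOA, the muscle-type aldolase that splits fructose 1,6-bisphosphate, had the largest SKOV3 response of the 10. Its signal was 11.60 and 11.52 in the SKOV3 controls and 9.68, 9.46 and 9.79 with miR-365a-3p. In the MDA-MB-231 controls it was 9.63, 10.18 and 10.38, and with miR-365a-3p 9.13, 9.26 and 9.29. The SKOV3 controls stood well above every other array, and the treated arrays of both lines lay between 9.13 and 9.79. ALDOA fell by 1.92 ± 0.191 (SE, limma adjusted p = 0.000374) in SKOV3 cells, to 26.4% of the control mean, and by 0.84 (limma adjusted p = 0.00647) in MDA-MB-231 cells. The difference of the responses, -1.08 (95% interval -1.67 to -0.50), was not called (limma adjusted p = 0.0761). It was called without MDA-MB-231 control replicate 1 (-0.87, limma adjusted p = 0.0265) and without MDA-MB-231 control replicate 3 (-1.25, limma adjusted p = 0.0431).

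The controls of the 2 lines differed for the same pair of genes. ALDOA was higher in the SKOV3 controls by 1.50 ± 0.191 (SE, limma adjusted p = 0.000742), as were 8.34% of all genes, and HK2 was lower by 1.70 ± 0.0563 (SE, limma adjusted p = 3.54e-07), as were 7.76% of all genes. The other 8 glycolysis genes were not called between the controls. PGK1 came next with -0.36 (limma adjusted p = 0.16), and it was called without MDA-MB-231 miR-365a-3p replicate 1 (-0.35, limma adjusted p = 0.0425).

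GAPDH oxidizes glyceraldehyde 3-phosphate and makes the NADH of the pathway, and it is often taken as a control gene. It read 13.11, 13.47 and 13.46 in the MDA-MB-231 controls and 12.55, 12.72 and 12.74 with miR-365a-3p. The SKOV3 controls read 13.26 and 13.30 and the treated arrays 12.63, 12.34 and 13.00. Every treated array was below every control of its line. GAPDH fell by 0.67 ± 0.159 (SE, n = 3 and 3, limma adjusted p = 0.0128) in MDA-MB-231 cells, to 62.7% of the control mean. The call was lost without MDA-MB-231 control replicate 3 (-0.61, limma adjusted p = 0.0522) and on the deposited values as they stand (-0.41, limma adjusted p = 0.0748). It was also lost with each array centred on its median (-0.38, limma adjusted p = 0.0887). The change in SKOV3 cells was -0.62 ± 0.178 (SE, n = 3 and 2) and just missed the threshold (limma adjusted p = 0.0505). It was called without SKOV3 miR-365a-3p replicate 3 (-0.80, limma adjusted p = 0.0101) and without MDA-MB-231 control replicate 1 (-0.61, limma adjusted p = 0.0437). After cyclic loess, a smoothing that depends on signal, it was called as well (-0.76, limma adjusted p = 0.0262).

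PGK1 makes the first ATP of the pathway and is the other enzyme used as a control gene. It read 11.90, 11.81 and 12.10 in the MDA-MB-231 controls and 11.41, 11.88 and 11.81 with miR-365a-3p. The SKOV3 arrays read 11.57 and 11.59 against 11.34, 11.46 and 11.60. The groups overlapped in both lines. The change was -0.24 (95% interval -0.53 to 0.054, limma adjusted p = 0.248) in the MDA-MB-231 line and -0.11 (95% interval -0.44 to 0.21, limma adjusted p = 0.773) in SKOV3 cells. Without MDA-MB-231 miR-365a-3p replicate 1 the change in that line was -0.090 (limma adjusted p = 0.63), and without MDA-MB-231 control replicate 3 it was -0.16 (limma adjusted p = 0.558). Neither interval reached the change measured for GAPDH in the same line. The intervals of GAPDH itself (-1.04 to -0.31 in MDA-MB-231 and -1.02 to -0.22 in SKOV3 cells) overlapped those of PGK1.

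ENO1, the enolase of most tissues, read 13.64, 13.74 and 13.71 in the MDA-MB-231 controls and 12.83, 13.61 and 13.53 with miR-365a-3p. The SKOV3 values were 13.80 and 13.79 against 13.51, 13.65 and 13.76. The gaps between groups were small apart from MDA-MB-231 miR-365a-3p replicate 1. The change was -0.37 (limma adjusted p = 0.186) in the MDA-MB-231 line and -0.16 (limma adjusted p = 0.766) in SKOV3 cells. Without that array the MDA-MB-231 change was -0.13. After cyclic loess it was -0.93 and called (limma adjusted p = 0.00479).

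LDHA, the lactate dehydrogenase subunit that reduces pyruvate to lactate, read 13.17, 13.19 and 13.25 in the MDA-MB-231 controls and 12.10, 12.61 and 12.75 with miR-365a-3p. In SKOV3 cells it read 13.10 and 13.21 against 13.04, 13.30 and 13.02. The groups were apart in the MDA-MB-231 line and overlapped in SKOV3 cells. LDHA fell by 0.72 (limma adjusted p = 0.00747) in MDA-MB-231 cells. The call was lost on the deposited values as they stand (-0.42, limma adjusted p = 0.0976) and with each array centred on its median (-0.39, limma adjusted p = 0.114). The change in SKOV3 cells was -0.037 (95% interval -0.42 to 0.35, limma adjusted p = 0.956), and the difference of the responses was 0.68 (limma adjusted p = 0.218), which was not called.

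**Figure D2:**
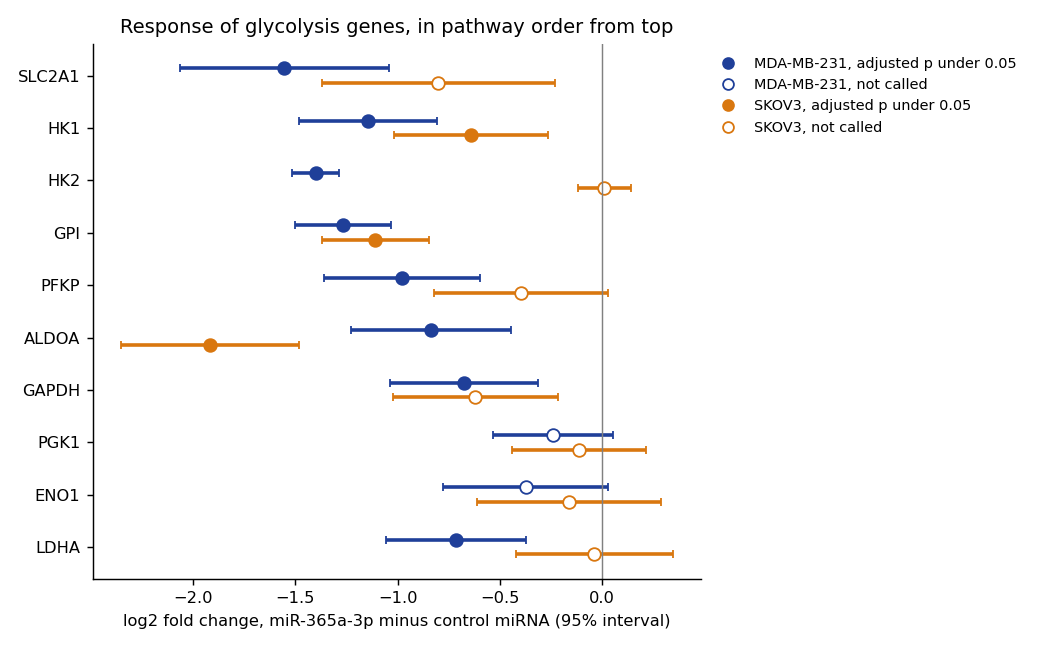
Log2 fold change (miR-365a-3p minus control miRNA, x axis) of the 10 glycolysis genes in pathway order from the top, in MDA-MB-231 (blue) and SKOV3 cells (orange), with 95% intervals from limma. Filled points passed an adjusted p of 0.05, which 8 genes did in the MDA-MB-231 line and 3 in SKOV3 cells.

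By position in the pathway, the 6 genes from uptake to aldolase all fell in the MDA-MB-231 line and 3 of them in SKOV3 cells, with median changes of -1.21 and -0.72. Of the 4 genes from GAPDH to LDHA, 2 fell in the MDA-MB-231 line and 0 in SKOV3 cells, with medians of -0.52 and -0.14. Whether position in the pathway goes with the size of the change was not tested. Over both lines, 7 of the 10 genes had every treated array below every control array, as did 10.3% of all genes.

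Across the 11 arrays, SLC2A1 and HK1 followed each other most closely (Pearson r = 0.952), PFKP was nearest to SLC2A1 (r = 0.945), and GAPDH was nearest to GPI (r = 0.939). HK2 and PGK1 were nearest to each other (r = 0.781), and ALDOA had its highest value with SLC2A1 (r = 0.734). ENO1 was nearest to LDHA (r = 0.856) and LDHA to SLC2A1 (r = 0.884). These are descriptions over arrays that share treatment and cell line. Among the 6853 genes with a mean over 8, the 3 most like GAPDH were LOC388275 (r = 0.965) and LOC729423 (r = 0.961), now named HNRNPA1P7 and HNRNPA1P6, and LOC646197 (r = 0.961), all 3 listed as pseudogenes in RefSeq, whose signal may be shared with near-identical copies. The 3 most like PGK1 were CRK (r = 0.944), CTNNBL1 (r = 0.939) and AP4B1 (r = 0.93).

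The use of GAPDH or PGK1 as the control gene was then examined by shifting every array to an equal value of one of them and repeating the fit. With PGK1 as the reference, 8 of the other 9 genes fell in the MDA-MB-231 line and 4 in SKOV3 cells, as did 5.17% and 3.85% of all genes. With GAPDH as the reference, 4 of the other 9 fell in MDA-MB-231 cells (SLC2A1, HK2, GPI and HK1) and PGK1 rose by 0.43. In SKOV3 cells ALDOA and GPI fell while HK2, PGK1, ENO1 and LDHA rose by 0.46 to 0.63. With GAPDH as the reference most genes of the arrays were called as rises, 28209 in MDA-MB-231 and 28208 in SKOV3 cells. Falls made up 2.77% and 1.86% of all genes, so that a rise in this fit did not set a gene apart. The same shift moved the median of all genes by 0.68 in the MDA-MB-231 line and 0.63 in SKOV3 cells, and the rises relative to GAPDH were below that of the median gene except for HK2 in SKOV3 cells (0.632 against 0.627). With PGK1 the median of all genes moved by 0.25 and 0.12.

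The spread of the reference gene passed to every gene in these fits, and limma then gave all genes a single standard error (0.197 in MDA-MB-231 and 0.22 in SKOV3 cells with GAPDH). The change of GAPDH relative to PGK1 is the same quantity in both fits with its sign turned, and only its standard error and its adjustment over all genes differ. With PGK1 as the reference it was -0.43 in MDA-MB-231 cells (95% interval -0.76 to -0.11, limma adjusted p = 0.0474) and was called, and -0.51 in SKOV3 cells (95% interval -0.87 to -0.14, limma adjusted p = 0.0627) and was not. With GAPDH as the reference the change of PGK1 was called in both lines (95% interval 0.048 to 0.82, limma adjusted p = 0.0299, and 0.074 to 0.94, limma adjusted p = 0.0243). The SKOV3 call thus depended on the reference, and the sizes gave no order between the lines. The choice between these control genes therefore moved the change of every other glycolysis gene by 0.43 and 0.51.

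Other common control genes moved in both directions. Of 15 such genes, 6 fell and 4 rose in the MDA-MB-231 line and 3 fell and 2 rose in SKOV3 cells. In the pairs of changes given here and for the lists that follow, the first is that of MDA-MB-231 and the second that of SKOV3 cells. ACTB, the cytoplasmic beta-actin, fell (-3.28 and -2.59), as did POLR2A, the largest subunit of RNA polymerase II (-1.47 and -1.59), and TUBB, a beta-tubulin (-1.41 and -1.03). HPRT1 was called in both lines too, but as a rise (0.52 and 0.78). With the median of these 15 as the reference, 0 glycolysis genes fell and GAPDH, PGK1 and ENO1 rose in MDA-MB-231 cells, and ALDOA alone fell in SKOV3 cells (-1.47, limma adjusted p = 0.00506). That reference moved the median of all genes by 1.34 and 0.45. With it 29800 genes rose in MDA-MB-231 and 736 in SKOV3 cells, and 0.463% and 0.753% of all genes fell.

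**Figure D3:**
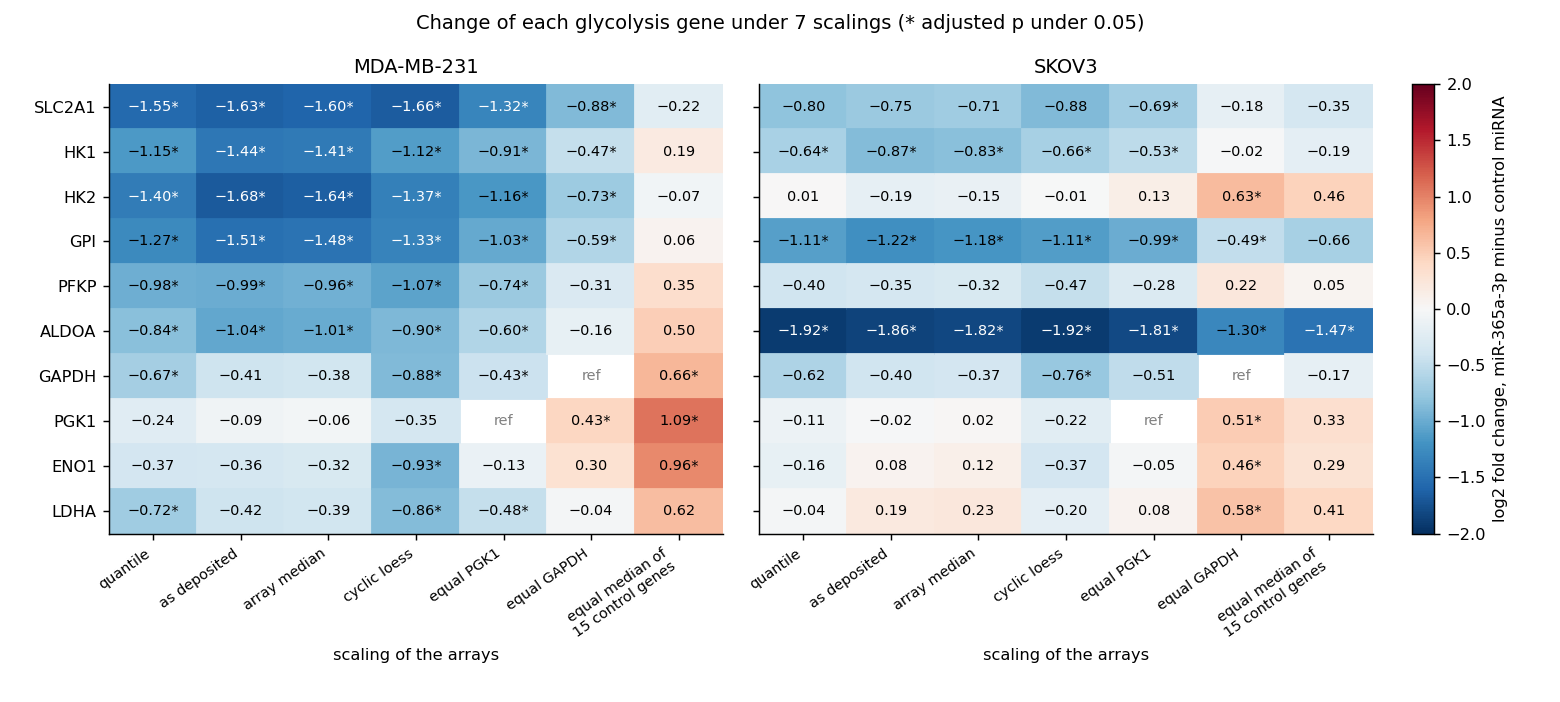
Log2 fold change (miR-365a-3p minus control miRNA, colour and number) of each glycolysis gene (vertical axis) under 7 scalings of the arrays (horizontal axis), in MDA-MB-231 and SKOV3 cells, with a star for an adjusted p under 0.05 and "ref" for the gene used as reference. The first 5 columns in MDA-MB-231 cells hold falls for SLC2A1, HK1, HK2, GPI, PFKP and ALDOA, and with the 15 control genes as reference no glycolysis gene fell there.

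The other genes of the pathway moved less evenly. Of 26 further glycolysis genes, 6 fell and 4 rose in the MDA-MB-231 line and 3 fell and 2 rose in SKOV3 cells, and 9 of the 26 had a mean signal over 8. PKM2 (now PKM), the pyruvate kinase of proliferating cells, fell (-0.58 and -0.63). ADPGK, a glucokinase that uses ADP, rose (0.67 and 0.70), and LDHB, the lactate dehydrogenase subunit of oxidative tissues, rose (0.37 and 0.60). LDHB thus rose in both lines where LDHA fell in MDA-MB-231 cells. The list medians of -0.014 and 0.0010 were near those of all genes.

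Of 14 genes of lactate export and pyruvate entry into mitochondria, 4 rose and 3 fell in the MDA-MB-231 line, while SKOV3 cells had 5 rises and 2 falls. BRP44L and BRP44 (now MPC1 and MPC2), the subunits of the mitochondrial pyruvate carrier, rose (1.01 and 1.15 for BRP44L, 1.03 and 0.69 for BRP44). PDHA1, a subunit of pyruvate dehydrogenase, rose (0.38 and 0.50). BSG, the chaperone of the lactate transporters, fell (-0.55 and -0.58). PDK2 was the 1 other gene called in both lines.

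In the pentose phosphate pathway, which branches off at glucose 6-phosphate, 2 of 7 genes rose and 2 fell in the MDA-MB-231 line and 2 rose and 3 fell in SKOV3 cells. PGD, which makes NADPH, fell (-0.53 and -0.51). RPE and TALDO1, of the part that makes no NADPH, rose (0.62 and 0.41 for RPE, 0.48 and 0.31 for TALDO1). Of 7 gluconeogenesis genes, 1 had a mean over 8, and 1 rose and 1 fell in the MDA-MB-231 line and 0 were called in SKOV3 cells.

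Among 12 regulators of glycolysis, 6 fell and 3 rose in the MDA-MB-231 line and 2 fell and 1 rose in SKOV3 cells. MYC, a transcriptional activator of many glycolysis genes, fell (-1.44 and -0.64). EPAS1 (HIF-2α), an oxygen-regulated transcription factor, fell (-1.14 and -0.79), and EGLN1, the prolyl hydroxylase that marks HIF proteins for breakdown, rose (0.42 and 0.47). HIF1A, the oxygen-regulated subunit of HIF-1, fell by 1.25 in MDA-MB-231 cells (limma adjusted p = 0.00699), and its change of -0.71 in SKOV3 cells was not called (limma adjusted p = 0.167). HIF1A is named here after its values were seen.

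Of 14 hypoxia-induced genes outside glycolysis, 7 fell and 2 rose in the MDA-MB-231 line and 5 fell and 1 rose in SKOV3 cells, with medians of -0.11 and -0.12. CA12, a membrane carbonic anhydrase, fell (-1.35 and -1.02), as did ADM, the peptide hormone adrenomedullin (-1.10 and -0.89). P4HA2, a collagen prolyl hydroxylase (-0.73 and -0.84), and LOX, a collagen cross-linking enzyme (-0.56 and -0.19), fell too. These 4 were the only genes of the list called in both lines. The rises were those of ANKRD37 (0.95) and JMJD1A (now KDM3A, 0.50) in MDA-MB-231 cells and of BNIP3 (0.58) in SKOV3 cells.

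**Figure D4:**
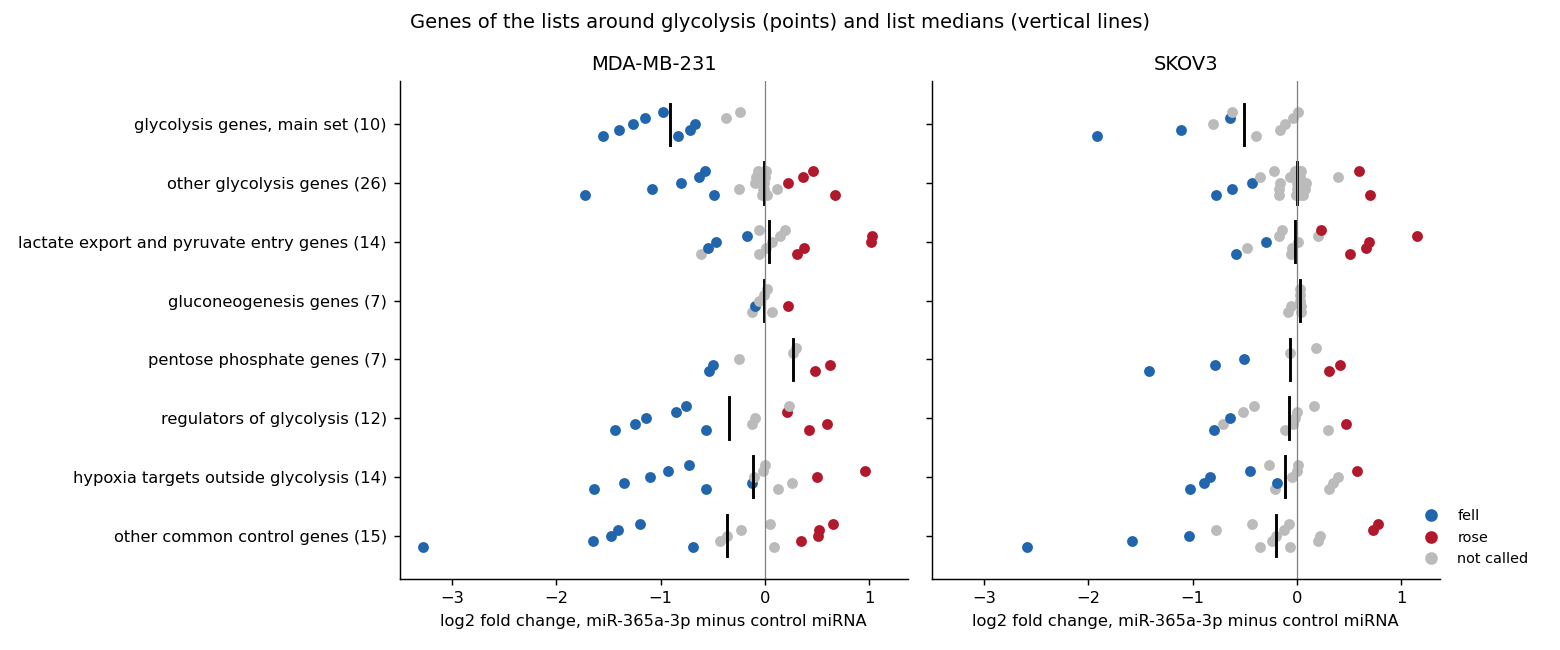
Log2 fold change (miR-365a-3p minus control miRNA, x axis) of each gene (points, spread vertically for display) of the glycolysis genes and 7 related lists, with the number of genes in brackets, list medians as vertical lines, and genes that fell in blue, rose in red or were not called in grey. The glycolysis genes have a median of -0.91 in MDA-MB-231 cells, below that of each other list, and ACTB is the control gene at -3.28.

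Since HIF1A, EPAS1 and MYC are regulators of the pathway, the promoters were searched for the letters ACGTG on either strand. ACGTG is a form of the core of the hypoxia response element, and the form GCGTG was not counted. They were also searched for CACGTG, the E-box of MYC, which contains ACGTG. The windows ran from 250 bases before to 50 bases after each annotated start (RefSeq, GRCh38.p14), and all 10 genes matched the table, with 23 windows in all. ACGTG was in 10 of the 23 windows, against 21.4% of 35116 windows of all genes, and 7 of the 10 genes had it in at least 1 window, against 24.9% of 27305 genes. CACGTG was in 4 of the 23 windows, against 7.26% of all windows, and in 4 of the 10 genes (HK2, ALDOA, GAPDH and LDHA), against 8.77%. Genes with many windows have more chances of a match, and neither the number of windows nor their share of G and C bases was matched. For each of the 7 genes, the match nearest upstream of an annotated start is shown within 30 bases of the plus strand. The match is in capitals (CACGT where ACGTG lies on the minus strand). These are shown because PGK1, which was not called, can be read beside genes that fell in MDA-MB-231 cells. Other matches, among them the CACGTG of HK2 and LDHA, are not shown in capitals.
HK2 (chr2:74834067-74834096): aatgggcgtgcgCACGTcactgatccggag
GPI (chr19:34364818-34364847): acactgcctgtaACGTGgaaggtgttcgat
PFKP (chr10:3069038-3069067): ccacgagcgcctACGTGatgcccggcccgt
ALDOA (chr16:30064373-30064402): tggcagggaggcCACGTGatccgagtcccc
GAPDH (chr12:6535171-6535200): gctctgcggggtCACGTGtcgcagaggagc
PGK1 (chrX:78104053-78104082): aaacggaagccgCACGTctcactagtaccc
LDHA (chr11:18394478-18394507): cgtgggttcccgCACGTccgccggcccccc
The matches lie 43 bases upstream of the start for HK2, 157 for GPI, 134 for PFKP, 106 for ALDOA, 75 for GAPDH, 178 for PGK1 and 68 for LDHA, where the last base of the match is followed by that many bases before the start. SLC2A1 and HK1, which fell in MDA-MB-231 cells, and ENO1, which was not called, had no ACGTG in their windows. Each of these genes has a window with GCGTG on either strand, a form whose share over all genes was not counted. PGK1, which was not called in either line, held 3 matches of ACGTG. A match is a description of the letters and not of binding.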

How the data were processed

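mRNA was measured on Illumina HumanHT-12 v4 BeadChips in MDA-MB-231 and SKOV3 cells. The authors used the quantile method of lumi (version not given in the sources used here) and deposited 1 log2-scale value per gene symbol and array for 31325 symbols. Whether the transformation was log2 or variance stabilizing, how probes of a gene were combined, and how background and dim probes were treated are not given in the sources used here. The number of arrays limits the precision.

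The deposited columns did not share a distribution and were quantile normalized across the 11 arrays in limma 3.58.1 (R 4.3.3). A model with 4 group means was fitted to all genes (lmFit, eBayes), with the contrasts of miR-365a-3p and control in each line, their difference and the difference of the controls, and p-values were adjusted by Benjamini-Hochberg at 0.05. The fit was tested on simulated data. No filter was applied. Groups and replicate numbers came from the labels.

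The glycolysis genes and the lists were chosen with earlier results of these data known. All 10 genes are named, from each other list up to 4 genes called in both lines with the largest mean change, and the 3 genes most like GAPDH and PGK1. Of these list genes, 2 stay in the counts and are not reported here by name. Alternatives were 6 other scalings, each line alone, a replicate block, brighter genes only, array weights, an intensity trend with robust eBayes, stricter thresholds and each array left out. Older symbols were matched through RefSeq (GRCh38.p14), and figures drawn with matplotlib 3.10.9.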

Additional observations from a re-analysis of the deposited data

Results flagged for a closer look

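The change in SKOV3 cells minus the change in MDA-MB-231 cells was itself called by limma for 8 of the genes reported here. Among the 10 glycolysis genes it was called for HK2 (1.41), which fell in the MDA-MB-231 line and was dim in SKOV3 cells on all arrays. Among the other glycolysis genes it was called for SLC2A3, the neuronal glucose transporter GLUT3, with 1.74, for ALDOC, the brain aldolase, with -0.54, and for ENO2, the neuronal enolase, with 0.45. The change of SLC2A3 was -1.73 in the MDA-MB-231 line and 0.016 in SKOV3 cells, that of ENO2 -0.63 and -0.18, and that of ALDOC 0.11 and -0.43. The hypoxia-induced genes NDRG1 and LOX differed by 1.37 and 0.37, with changes of -1.64 and -0.56 in the MDA-MB-231 line and -0.27 and -0.19 in SKOV3 cells. The SKOV3 markers PAX8 and MUC1 differed by -0.67 and -0.85, with changes of -0.033 and 0.042 in the MDA-MB-231 line and -0.70 and -0.81 in SKOV3 cells. Groups of 3 arrays or fewer were too small for a check of single deviating arrays.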

How the results depend on the processing

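Of the values of single glycolysis genes under the alternatives, 369 kept their direction and their side of the threshold, 20 lost and 13 gained a call, and 34 changed sign, 22 of them with no call before or after. The falls of SLC2A1, HK1, HK2, GPI, PFKP and ALDOA in MDA-MB-231 cells and of ALDOA in SKOV3 cells kept their direction and call under all alternatives other than those referred to GAPDH or to the control genes. With GAPDH as the reference, 4 genes fell and 1 rose in MDA-MB-231 cells and 4 rose in SKOV3 cells, with PGK1 at 0.43 in MDA-MB-231 cells and PGK1, ENO1 and LDHA at 0.51, 0.46 and 0.58 in SKOV3 cells. HK2 rose by 0.63 there, ENO1 was at 0.30 in MDA-MB-231 cells and PFKP at 0.22 in SKOV3 cells. With the median of 15 control genes, 0 fell and 3 rose in MDA-MB-231 cells and 1 fell in SKOV3 cells. HK1, GPI, PFKP, ALDOA, GAPDH, PGK1, ENO1 and LDHA then changed by 0.19, 0.064, 0.35, 0.50, 0.66, 1.09, 0.96 and 0.62 in MDA-MB-231 cells, and PFKP, PGK1, ENO1 and LDHA by 0.051, 0.33, 0.29 and 0.41 in SKOV3 cells. By their construction, these references subtract their own change from every gene. Of all genes, 28209 rose in MDA-MB-231 and 28208 in SKOV3 cells with GAPDH, and 29800 and 736 with the control genes. With only genes above the median mean, or with an intensity trend, 5 genes fell in SKOV3 cells, SLC2A1 and GAPDH in addition. The difference between the lines was called for 2 genes, ALDOA in addition, in both of these fits, with array weights and with GAPDH or PGK1 as the reference, and for 1 to 2 genes with 1 array left out. With the control genes as reference it was called for ALDOA and not for HK2. In the controls 2 genes were lower in SKOV3 cells with array weights, PGK1 in addition, and 1 to 2 with 1 array left out. Small SKOV3 changes had no settled sign. HK2 was at -0.19 on the deposited values, -0.15 with each array centred on its median, -0.0060 after cyclic loess, -0.013 with a replicate block and -0.013 to 0.052 with 1 array left out. ENO1 was at 0.078 on the deposited and 0.12 on the centred values, and PGK1 at 0.016 on the centred values. LDHA was at 0.19 on the deposited and 0.23 on the centred values, 0.077 with PGK1 as the reference, 0.014 with a replicate block and -0.12 to 0.016 with 1 array left out. Falls made up 44.8% of all calls in MDA-MB-231 and 49.5% in SKOV3 cells after quantile normalization, 71.2% and 78.6% on the deposited values, 59.1% and 67.7% with each array centred on its median. The replicate numbers did not pair the arrays (correlations of same-numbered deviations -0.12, 0.042 and 0.23 in MDA-MB-231 and 0.039 and -0.073 in SKOV3 cells). With a replicate block HK1 lost its SKOV3 call (-0.66, limma adjusted p = 0.168) and GAPDH gained one (-0.79, limma adjusted p = 0.0152), and no other of these genes changed its call. With each line alone HK1 in SKOV3 cells was not called (limma adjusted p = 0.171). Other causes were not tested.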
